A study of Mus musculus with 6 samples.

Results

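Glutamatergic neuron identity genes were followed as a set of 8 genes chosen by name, with earlier results of these data known. They were the vesicular glutamate transporters Slc17a7 and Slc17a6, the transcription factors Neurod2, Neurod6, Tbr1, Etv1 and Lhx2, and the secreted protein gene Rspo2. All 8 were among the 26264 gene symbols of the deposited counts, and all 8 passed the filter on low counts together with 14739 genes in all. The study measured total RNA, depleted of ribosomal RNA, from basolateral amygdala dissected from male mice. The CRS group held 3 mice exposed to chronic restraint, a stressor that repeatedly confines the animal so that it cannot move, and the Ctrl group held 3 mice that were not stressed. Each mouse gave 1 library, and the labels name no genotype, strain, age, drug, or duration of restraint for either group.

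The basolateral amygdala is built largely of glutamatergic projection neurons, with a minority of GABAergic interneurons, and belongs by development to the pallium, as the cortex does. Glutamatergic neurons fill their synaptic vesicles with glutamate through a vesicular transporter. VGLUT1, encoded by Slc17a7, is the usual form in cortex, hippocampus and basolateral amygdala, while VGLUT2, encoded by Slc17a6, is the usual form in thalamus, hypothalamus and medial amygdala. Neurod2 and Neurod6 are basic helix-loop-helix factors of pallial excitatory neurons, and Tbr1 is a T-box factor of early-born excitatory neurons. Rspo2 encodes an R-spondin that amplifies Wnt signalling and marks a population of basolateral amygdala projection neurons in mice. Etv1 is an ETS factor of deep-layer cortical neurons, and Lhx2 is a LIM-homeodomain factor that patterns the dorsal telencephalon.

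The upstream sequences of 5 transcription starts are shown for 4 genes of the set: Slc17a7 and Tbr1 followed each other most closely across the libraries, Slc17a6 departed from both, and Neurod2 encodes a factor of the set that itself binds E-boxes. Each is the 250 bases before an annotated start, 5′ to 3′ on the gene's strand, from RefSeq on build GRCm38.p6, which is not the build mm39 named for the counts. Capitals mark the E-boxes CAGATG and CAGCTG, of the type that NeuroD factors bind, and the homeodomain core TAATTA, of the type that LIM-homeodomain factors bind, searched on both strands.
Slc17a7 (chr7:45163671-45163920, plus strand): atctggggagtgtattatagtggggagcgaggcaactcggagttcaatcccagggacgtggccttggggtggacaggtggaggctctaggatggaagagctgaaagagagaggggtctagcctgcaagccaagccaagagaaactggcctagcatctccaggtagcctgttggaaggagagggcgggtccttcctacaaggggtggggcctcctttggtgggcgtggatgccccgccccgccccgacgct
Tbr1 (chr2:61804203-61804452, plus strand): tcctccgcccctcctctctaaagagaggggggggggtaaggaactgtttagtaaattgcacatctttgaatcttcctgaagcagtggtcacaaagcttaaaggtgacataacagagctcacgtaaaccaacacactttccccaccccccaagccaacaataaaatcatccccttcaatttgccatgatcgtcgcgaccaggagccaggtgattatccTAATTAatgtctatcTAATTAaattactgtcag
Slc17a6 first start (chr7:51621580-51621829, plus strand): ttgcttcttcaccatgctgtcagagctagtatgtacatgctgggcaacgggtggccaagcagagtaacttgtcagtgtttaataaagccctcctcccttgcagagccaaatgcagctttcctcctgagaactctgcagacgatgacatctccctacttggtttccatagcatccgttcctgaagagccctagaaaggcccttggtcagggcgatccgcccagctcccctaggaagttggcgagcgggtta
Slc17a6 second start (chr7:51624387-51624636, plus strand): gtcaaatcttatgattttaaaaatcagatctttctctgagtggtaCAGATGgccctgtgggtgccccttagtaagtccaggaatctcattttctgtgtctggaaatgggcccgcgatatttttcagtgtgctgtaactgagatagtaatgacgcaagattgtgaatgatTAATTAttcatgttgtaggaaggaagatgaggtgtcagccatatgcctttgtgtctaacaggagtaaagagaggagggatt
Neurod2 (chr11:98329646-98329895, minus strand): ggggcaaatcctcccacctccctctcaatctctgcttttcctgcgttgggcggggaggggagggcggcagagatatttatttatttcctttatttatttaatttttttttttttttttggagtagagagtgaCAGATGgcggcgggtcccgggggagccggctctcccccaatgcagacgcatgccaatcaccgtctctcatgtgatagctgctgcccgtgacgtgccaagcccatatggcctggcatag
No capitals appear in the window of Slc17a7 or at the first start of Slc17a6. A CAGATG stands in that of Neurod2 and at the second start of Slc17a6, which also holds TAATTA, and Tbr1 holds TAATTA at 2 places. Over the first listed start of 27025 genes, 14.5% of windows hold CAGATG, 12.8% CAGCTG, 4.9% TAATTA and 29% any of these. Among the 7 genes of the set other than Rspo2, the first window of 2, Neurod2 and Tbr1, holds any of them. Windows of Neurod6, which also encodes a NeuroD factor, and of Etv1 and Lhx2 are not shown. Their first windows hold none of the motifs, and the second of Etv1 holds CAGATG. The shares above are for first starts and do not cover second ones. A match is a stretch of letters and shows no binding.

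The 6 libraries held 9859449 to 10233706 counts in genes, and per the labels the mice of a group are biological replicates. Library CRS 1 stood apart in its regional markers. Its summed level of 15 striatal and central amygdala markers was 414 CPM (counts scaled to a common library size), against 989 and 1104 CPM in CRS 2 and CRS 3 and 1023 to 2030 CPM in Ctrl libraries, of which Ctrl 1 was highest. Adora2a and Drd2, the defining genes of one class of striatal neuron, were at 0.719 and 1.75 CPM in CRS 1. Choroid plexus markers summed to 143, 8861 and 152 CPM in CRS 1 to 3 and to 3662, 6510 and 227 CPM in Ctrl 1 to 3. The defining transcripts of excitatory neurons were present in every library, as the values that follow show. In dissected tissue, fewer cells of a type and less RNA per cell cannot be told apart.

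None of the 8 glutamatergic genes changed past the threshold under stress, although all 8 had a fitted difference above 0 (7 of 8 when libraries were scaled to pan-neuronal markers, with Slc17a6 at -0.052). The differences ran from 0.041 for Slc17a6 to 0.48 for Rspo2 on the log2 scale, with a median of 0.23. Over all 14739 genes the median was -0.0044 and 48.4% were above 0. The set was chosen with earlier results of these data known, so its shared direction is no independent result. Lhx2 was the single gene of the set whose CRS and Ctrl values did not overlap, with CRS higher. Over all 14739 genes, 560 (3.8%) did not overlap with CRS higher and 661 with CRS lower. The test was edgeR's quasi-likelihood test with Benjamini-Hochberg adjustment over the whole table: 0 of 8 passed an adjusted p of 0.05, and 0% of all genes did. At an unadjusted p under 0.05 it was 1 of 8, against 3.37% of all genes. Without Ctrl 3 it was 3 of 8, all above 0, against 777 of 14968 genes. Without CRS 1 and Ctrl 1 it was 3 of 8, against 206 of 14818, with Neurod2 and Neurod6 below 0. Without CRS 3 it was 2 of 8, against 598 of 14969, with Slc17a6 below 0. With the striatal marker level as a covariate it was 2 of 8, against 294 of 14739, with Neurod6 below 0. With all 6 libraries and no covariate, the adjusted p was 0.997 for 7 of the genes and 0.999 for Slc17a6. DESeq2, limma-voom and edgeR's likelihood ratio test also called 0 of the 8, and 2, 0 and 4 of all genes. Each had 1 of the 8 at an unadjusted p under 0.05, against 310 of 20912, 507 of 14739 and 334 of 14739 genes. Without CRS 1, 4 of the 8 differences were above 0 and the median was 0.053.

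**Figure D1:**
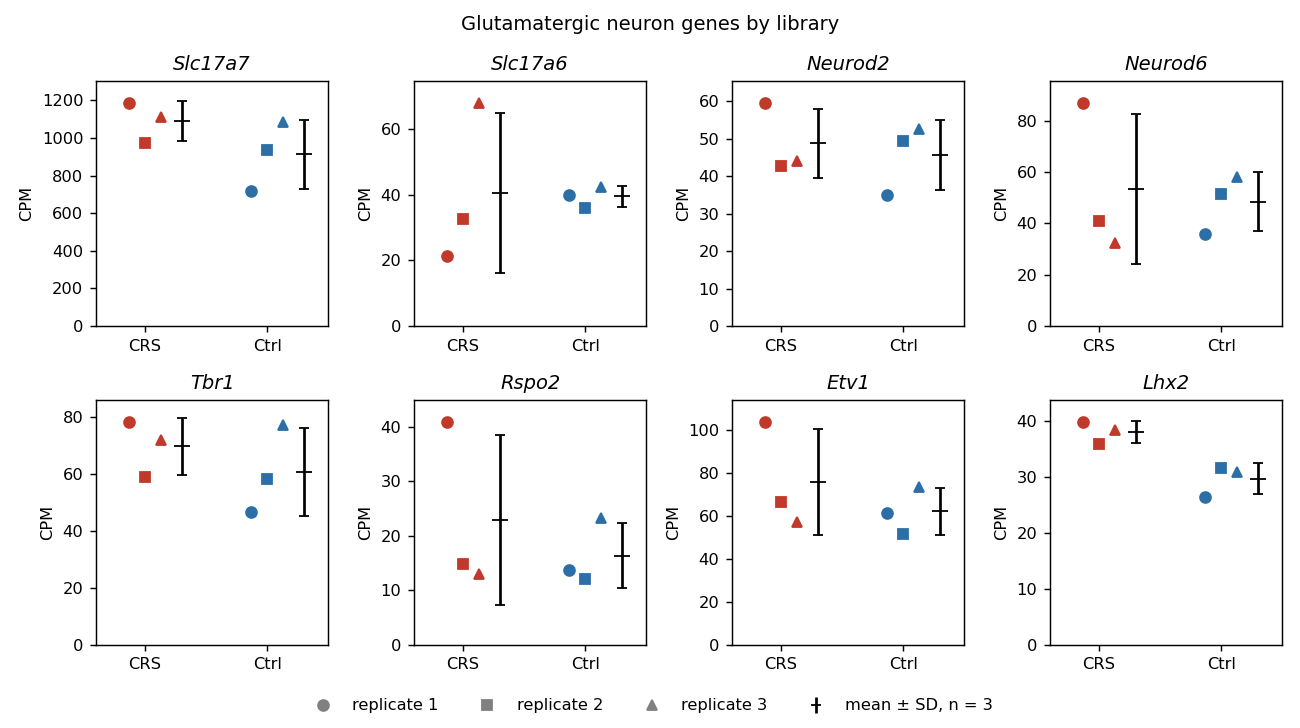
Level of each gene in CPM (vertical axes, linear from 0) in the 3 CRS and the 3 Ctrl libraries, 1 panel a gene, with replicate numbers as symbols and the mean ± SD (n = 3) as a bar beside each group. Lhx2 has all CRS values, 36.0 to 39.9 CPM, above all Ctrl values, 26.5 to 31.7 CPM, as in 3.8% of all genes. The groups overlap in the other 7 genes.

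Slc17a7, the VGLUT1 gene, was at 1184, 973 and 1110 CPM in CRS 1 to 3, against 719, 934 and 1085 CPM in Ctrl 1 to 3. Ctrl 1 was the lowest of the 6 libraries and CRS 1 the highest, and the groups overlapped through Ctrl 3. The means were 1089 ± 107 CPM in CRS mice and 913 ± 184 CPM in Ctrl mice (SD, n = 3 each). The fitted difference was 0.25 ± 0.15 on the log2 scale, with its SE, and a 95% interval from -0.11 to 0.62. Without Ctrl 1 it was 0.11, with CRS 1 and Ctrl 1 both left out it was 0.045, and without Ctrl 3 it was 0.40 (unadjusted p 0.0245, adjusted p 0.855, edgeR).

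Slc17a6, the VGLUT2 gene, showed no common level within the CRS group. Its values were 21.3, 32.5 and 67.7 CPM in CRS 1 to 3, against 39.9, 36.0 and 42.4 CPM in Ctrl 1 to 3. The 3 CRS mice thus held the highest value and the lowest pair of values of the series, and the Ctrl mice lay between them. The CRS range was 3.19-fold and the Ctrl range 1.18-fold. The group means, 40.5 ± 24.2 CPM in CRS mice and 39.4 ± 3.24 CPM in Ctrl mice, gave a log2 fold change of 0.041 ± 0.43 with a 95% interval from -1.04 to 1.12. This interval holds folds from 0.487 to 2.17, so the data leave the direction of any stress difference unresolved. Without CRS 3 the value was -0.55 (unadjusted p 0.0238, adjusted p 0.975, edgeR) and without CRS 1 it was 0.35.

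The balance of the vesicular transporters therefore varied mostly between CRS mice. Slc17a6 counts were 1.79, 3.34 and 6.10% of Slc17a7 counts in CRS 1 to 3, against 5.54, 3.85 and 3.91% in Ctrl 1 to 3. This ratio needs no library size, and per exon length it was nearly the same, from 1.79 to 6.09%. On the log2 scale its mean was -4.91 ± 0.88 in CRS mice and -4.52 ± 0.30 in Ctrl mice (SD, n = 3 each), a difference of -0.40 that was smaller than the spread of the CRS group. It was 0.048 without CRS 1. The remaining vesicular transporter, Slc17a8 (VGLUT3), was at 2.46, 5.84 and 1.99 CPM in CRS 1 to 3, against 4.77, 6.01 and 4.09 CPM in Ctrl 1 to 3, with overlapping groups.

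**Figure D2:**
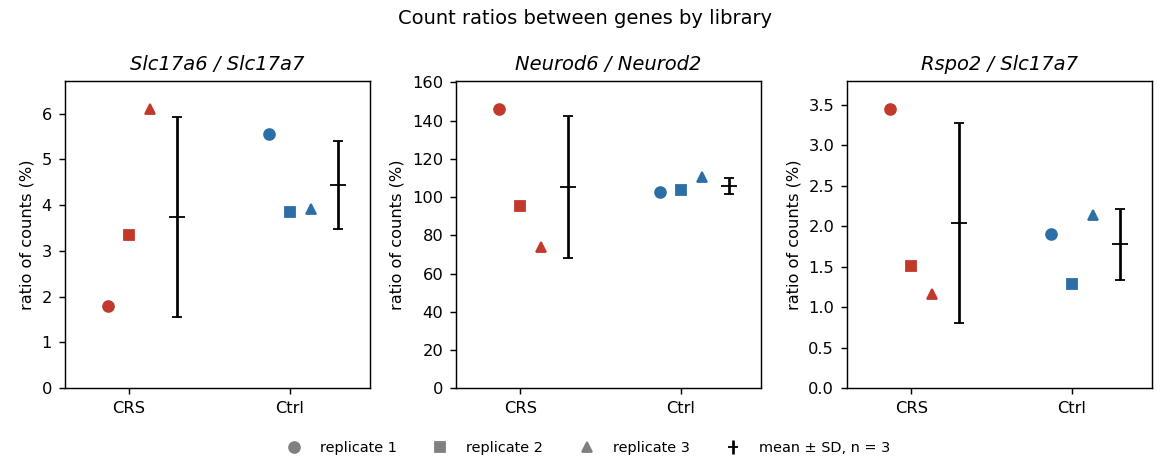
Ratio of counts between genes, in percent (vertical axes from 0), for the 3 CRS and 3 Ctrl libraries, with replicate numbers as symbols and the mean ± SD (n = 3) as a bar. Slc17a6 over Slc17a7 spans 1.79 to 6.10% in CRS libraries and 3.85 to 5.54% in Ctrl libraries, and Neurod6 over Neurod2 spans 73.8 to 146% in CRS libraries and 103 to 111% in Ctrl libraries.

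Neurod2 and Neurod6 differed little between the groups and much between libraries. Neurod2 was at 59.4, 42.8 and 44.0 CPM in CRS 1 to 3, against 34.9, 49.4 and 52.6 CPM in Ctrl 1 to 3. CRS 1 and Ctrl 1 were the extremes, and among the remaining libraries CRS 2 and CRS 3 lay below Ctrl 2 and Ctrl 3. Its log2 fold change was 0.095 ± 0.19 (95% interval -0.36 to 0.55), and it was -0.072 without CRS 1 and -0.063 without Ctrl 1. Without both it was -0.23 (unadjusted p 0.0435, adjusted p 0.99999, edgeR).

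Neurod6 had the same high library with a wider range, at 86.9, 40.9 and 32.5 CPM in CRS 1 to 3, against 35.9, 51.3 and 58.3 CPM in Ctrl 1 to 3. CRS 1 was 2.67-fold above CRS 3, the lowest library. The log2 fold change was 0.14 ± 0.42 (95% interval -0.93 to 1.21). It turned to -0.40 without CRS 1 and to -0.58 without CRS 1 and Ctrl 1, where the unadjusted p was 0.00352 and the adjusted p 1.00 (edgeR). Counts of Neurod6 relative to Neurod2 were 146, 95.5 and 73.8% in CRS 1 to 3, against 103, 104 and 111% in Ctrl 1 to 3, so the pair kept nearly 1 ratio in Ctrl mice and not in CRS mice.

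Tbr1, the T-box factor, was at 78.4, 58.9 and 71.9 CPM in CRS 1 to 3, against 46.6, 58.3 and 77.4 CPM in Ctrl 1 to 3. The Ctrl values spread wider than the CRS values and covered all but the highest of them. Its log2 fold change was 0.20 ± 0.20 (95% interval -0.27 to 0.67), and it was 0.044 without Ctrl 1 and 0.41 without Ctrl 3 (unadjusted p 0.0332, adjusted p 0.855, edgeR). Of the 28 pairs of genes in the set, Tbr1 and Slc17a7 had the smallest root mean square difference between their centred log2 CPM over the 6 libraries, 0.073, and Rspo2 and Slc17a6 the largest, 1.02.

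Rspo2 rested on the fewest reads, with 124 to 398 counts a library. It was at 40.9, 14.7 and 12.9 CPM in CRS 1 to 3, against 13.7, 12.02 and 23.2 CPM in Ctrl 1 to 3. CRS 1 was high alone, and CRS 2 and CRS 3 lay within the Ctrl range. The log2 fold change of 0.48 ± 0.54 had a 95% interval from -0.87 to 1.84, and it was -0.24 without CRS 1 and 0.82 without Ctrl 3.

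Etv1, the ETS factor, had the same pattern in a milder form, at 104, 66.5 and 57.3 CPM in CRS 1 to 3, against 61.2, 51.3 and 73.5 CPM in Ctrl 1 to 3. The log2 fold change was 0.29 ± 0.25 (95% interval -0.33 to 0.91), and -0.0019 without CRS 1. Of the 100-base words in its annotated transcripts, 939 of 13869 (6.77%) also occur in the processed pseudogene Gm5454, so reads from that stretch cannot be assigned to 1 gene. No other gene of the set shared such a word with another gene's transcripts, Neurod2 and Neurod6 included.

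Lhx2, the LIM-homeodomain factor, differed from the rest of the set in that its CRS values lay close together. It was at 39.9, 36.0 and 38.4 CPM in CRS 1 to 3, against 26.5, 31.7 and 30.9 CPM in Ctrl 1 to 3. Every CRS library lay above every Ctrl library, as in 3.8% of all genes in this direction. The means were 38.1 ± 2.01 CPM in CRS mice and 29.7 ± 2.77 CPM in Ctrl mice (SD, n = 3 each). The log2 fold change was 0.36 ± 0.093 (95% interval 0.15 to 0.57), a 1.28-fold difference. Its unadjusted p of 0.00462 was the 22nd smallest of all genes, and its adjusted p was 0.997 (edgeR), so it did not pass. Leaving out each library in turn gave 0.29 to 0.42, and leaving out CRS 1 and Ctrl 1 gave 0.25 with an unadjusted p of 0.0461. Scaled to pan-neuronal markers it was 0.28 (unadjusted p 0.0244), and over all 18 alternative settings the adjusted p ranged from 0.761 to 1.00. Antisense genes overlap the Lhx2 locus without sharing exon bases in the annotation used, GENCODE M21 on GRCm38, and the strand setting of the counting is not given in the sources used here.

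**Figure D3:**
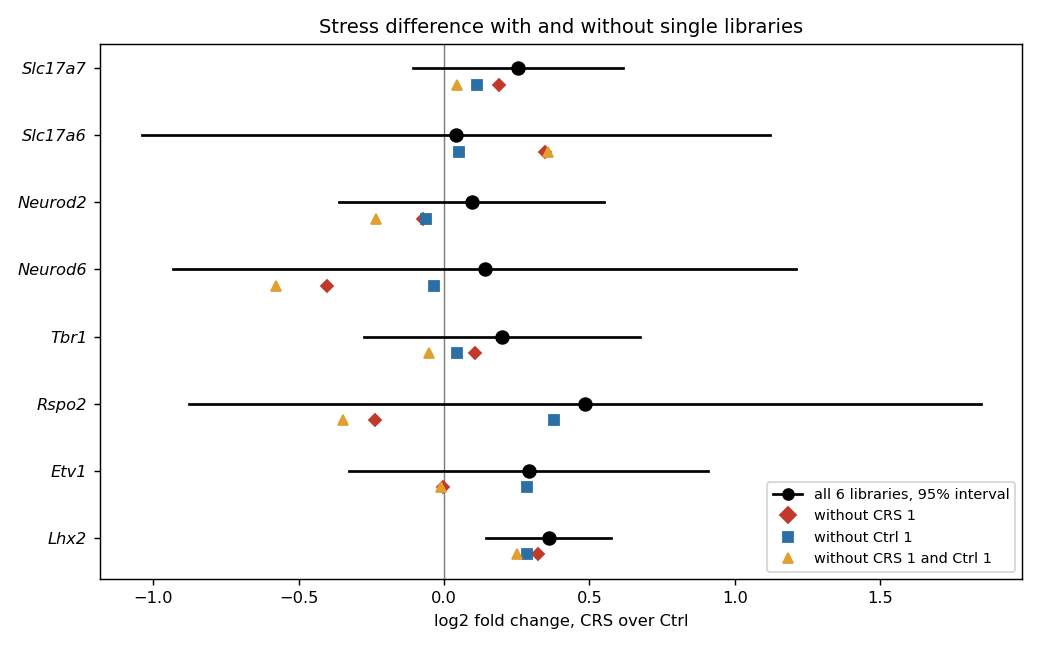
Log2 fold change of CRS over Ctrl (horizontal axis) for each gene, with the 95% interval from all 6 libraries as a line and the value without CRS 1, without Ctrl 1 or without both as coloured symbols below it. The Lhx2 interval, 0.15 to 0.57, lies above 0, the other 7 include 0, and Neurod2, Neurod6, Rspo2 and Etv1 lie below 0 without CRS 1.

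Values varied between mice of a group by more than counting alone gives, widely for 7 of the genes and little for Lhx2. The coefficient of variation within groups was 15.1% for Slc17a7, where counting alone gives 1.01%. It was 60.6% for Rspo2 against 7.83% from counting, 43.6% for Neurod6 against 4.68%, and 43.3% for Slc17a6 against 5.32%. Etv1 stood at 27.7%, Tbr1 at 20.0% and Neurod2 at 19.8%. Lhx2, at 7.15% against 5.49% from counting, was the single gene of the set below the median of all tested genes, 10.2%. Counting errors cover sampling of reads only.

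Ordered by level per exon length, in RPKM (CPM divided by the summed exon length in kilobases), Slc17a7 stood far above the rest. It averaged 202 ± 19.9 RPKM in CRS mice and 169 ± 34.1 RPKM in Ctrl mice (SD, n = 3 each), rank 89 of 14348 genes with a length. Neurod6 followed at 24.8 ± 13.6 RPKM in CRS mice and 22.5 ± 5.33 RPKM in Ctrl mice. Neurod2 was at 15.5 ± 2.95 and Tbr1 at 12.7 ± 1.81 RPKM in CRS mice, against 14.5 ± 3.01 and 11.1 ± 2.83 RPKM in Ctrl mice. Adjacent genes among these 3 differed by less than their summed SDs between mice in both groups. Within each library, however, Neurod6 was above Neurod2 and Neurod2 above Tbr1.

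At the low end, Lhx2 was at 8.68 ± 0.458 RPKM in CRS mice and 6.76 ± 0.632 RPKM in Ctrl mice, and Slc17a6 at 7.50 ± 4.49 RPKM in CRS mice and 7.30 ± 0.600 RPKM in Ctrl mice. These neighbours changed places between the groups and lay within their spread in each. Etv1 averaged 5.71 ± 1.85 RPKM in CRS mice and 4.66 ± 0.836 RPKM in Ctrl mice, and Rspo2 4.47 ± 3.06 RPKM in CRS mice and 3.19 ± 1.18 RPKM in Ctrl mice, again within their spread. Etv1 lay within the spread of Slc17a6 in CRS mice, and below Lhx2 by more than their summed SDs in Ctrl mice. Within libraries Etv1 stood above Rspo2 in all but CRS 1, where they were at 7.81 and 7.99 RPKM. By mean, Rspo2 was the lowest of the set in both groups, at the 38th percentile of genes with a length.

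Read by library, the set had its highest mean level in CRS 1 and its lowest in Ctrl 1, and Ctrl 3 was the second highest. CRS 1 was the highest of the 6 libraries for 7 of the 8 genes, where it was highest for 22.6% of all genes, and it was the lowest for Slc17a6. Ctrl 1 was the lowest for 4 of the 8, Slc17a7, Neurod2, Tbr1 and Lhx2, against 15.6% of all genes. Ctrl 3 was the highest Ctrl library for 7 of the 8. The mean log2 level of the set, relative to the Ctrl mean, was 0.47, -0.019 and 0.098 in CRS 1 to 3, against -0.22, -0.049 and 0.27 in Ctrl 1 to 3. The median difference of the 8 was 0.053 without CRS 1, 0.082 without Ctrl 1 and 0.39 without Ctrl 3.

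The striatal and central amygdala markers had the opposite extremes. Their mean log2 level relative to the Ctrl mean was -2.57, -0.46 and -0.52 in CRS 1 to 3, against 0.53, -0.39 and -0.14 in Ctrl 1 to 3. CRS 1 was the lowest library for 14 of the 15 and Ctrl 1 the highest for 14 of the 15. All 15 had fitted differences below 0, with a median of -0.85 and none past the threshold, and without CRS 1 and Ctrl 1 it was 12 of 15 with a median of -0.22. Ido1, which encodes a tryptophan-degrading enzyme, was at -1.52 ± 0.50 and Tac1, the substance P precursor gene, at -0.79 ± 0.40. Oligodendrocyte markers, all 12 of which had fitted differences below 0 (8 of 12 without CRS 1 and Ctrl 1), summed to 1821, 2615 and 2054 CPM in CRS 1 to 3, against 3682, 2552 and 2326 CPM in Ctrl 1 to 3. With the striatal level as a covariate, the differences of Neurod6, Rspo2, Neurod2, Etv1 and Tbr1 were -0.68, -0.52, -0.23, -0.11 and -0.0089, while Slc17a6 was at 0.55, Lhx2 at 0.26 and Slc17a7 at 0.087. CRS 1 lay far below the other libraries in that level, so the fit cannot tell the markers apart from that library. The part of the striatal and oligodendrocyte markers in the differences of the glutamatergic genes was not tested.

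**Figure D4:**
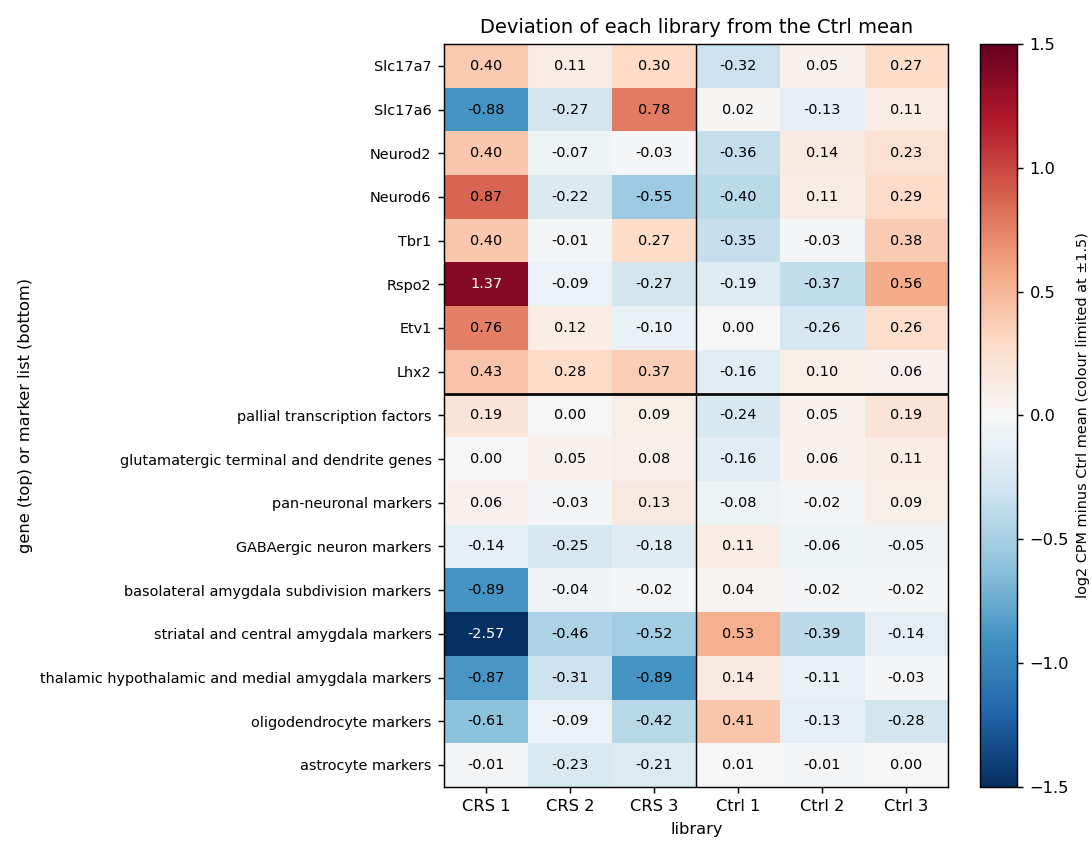
Log2 CPM of each gene (top 8 rows) and mean log2 CPM of each marker list (bottom rows) in each library minus the Ctrl mean, printed in the cells and shown as colour limited at ±1.5. CRS 1 is high for 7 of the 8 genes and low for Slc17a6, and its striatal and central amygdala level is -2.57.

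Of the other pallial transcription factors, 14 of 19 had differences above 0 and 5 below, from -0.49 for Lhx9 to 0.61 for Fezf2, 0 of 19 passed, and the median was 0.11. Without CRS 1 and Ctrl 1, 3 of 19 were above 0 and the median was -0.10. Emx2, a homeobox factor of the dorsal telencephalon, was at 4.44 ± 0.444 CPM in CRS mice and 3.71 ± 0.117 CPM in Ctrl mice. Of the 19 it alone had all CRS values above all Ctrl values, as in 3.8% of all genes. CRS 2 and Ctrl 2 both held 39 counts of it, at 3.93 and 3.78 CPM. Its log2 fold change was 0.26 ± 0.18 (unadjusted p 0.184, edgeR). Bcl11a, a zinc finger factor, was at 0.35 ± 0.25 on the same scale. Fezf2, which specifies deep-layer projection neurons and was named after its values were seen, was at 35.7, 15.8 and 11.5 CPM in CRS 1 to 3, against 11.7, 12.3 and 17.2 CPM in Ctrl 1 to 3. Its log2 fold change was 0.61 ± 0.46, and as with Rspo2 a single CRS library was high.

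Genes of glutamatergic terminals and dendrites showed 10 of 14 differences above 0 and 4 below, none past the threshold, with a median of 0.094. Sv2b, a synaptic vesicle protein of excitatory neurons, was at 1015 ± 101 CPM in CRS mice and 853 ± 132 CPM in Ctrl mice (log2 fold change 0.25 ± 0.13), and the NMDA receptor subunit gene Grin2b was at 0.26 ± 0.17. Pan-neuronal markers had 12 of 15 differences above 0, with a median of 0.10. Nefm, a neurofilament gene, went against them at -0.47 ± 0.17, and Stmn2, a tubulin-binding growth protein gene, was at 0.24 ± 0.11. GABAergic markers had 11 of 15 below 0 and a median of -0.14. Without CRS 1, and also without CRS 1 and Ctrl 1, it was 14 of 15, with medians of -0.18 and -0.13. Gad2, a GABA-synthesizing enzyme gene, was at 220 ± 46.4 CPM in CRS mice and 321 ± 84.6 CPM in Ctrl mice (-0.55 ± 0.24), and the factor Dlx5 was at -0.53 ± 0.22. No gene of these lists passed the threshold over all genes. Without CRS 1 and Ctrl 1 the terminal and dendrite genes split 7 above 0 and 7 below.

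Markers listed for amygdala subdivisions did not follow the high values of CRS 1. Of 11 tested, 9 were below 0 and 2 above, with a median of -0.23 and none past the threshold, and CRS 1 was the lowest library for 7. Without CRS 1, 6 of 11 were below 0 and the median was -0.0078. Myl4, a myosin light chain gene, was at -0.68 ± 0.32 and the cadherin gene Cdh13 at -0.23 ± 0.15. Genes named here after their values were seen show the contrast within CRS 1. Cyp26b1, which encodes a retinoic acid-degrading enzyme, was at 8.52, 59.4 and 58.1 CPM in CRS 1 to 3, against 68.4, 54.9 and 62.2 CPM in Ctrl 1 to 3. Lypd1, a modulator of nicotinic receptors, was at 104, 518 and 485 CPM in CRS 1 to 3, against 584, 520 and 342 CPM in Ctrl 1 to 3. Grp, the gastrin-releasing peptide gene, was at 18.7, 9.27 and 7.95 CPM in CRS 1 to 3, against 8.35, 8.82 and 8.18 CPM in Ctrl 1 to 3. Rspo2, Fezf2 and Grp were thus highest, and Cyp26b1, Lypd1 and Slc17a6 lowest, in the same library.

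Of 12 markers listed for thalamus, hypothalamus and medial amygdala, where VGLUT2 is the usual transporter, Otp, Sim1 and Lhx5 did not pass the filter. The other 9 were all below 0, with a median of -0.41 and none past the threshold. This list, which holds Irs4 and Greb1, was chosen with earlier results of these data known, so its direction is no independent result. Irs4, an insulin receptor substrate gene, was at 0.821, 1.71 and 2.09 CPM in CRS 1 to 3, against 6.46, 4.36 and 4.60 CPM in Ctrl 1 to 3, and Greb1, an oestrogen-responsive gene, was at 0.470 ± 0.109 CPM in CRS mice and 2.09 ± 0.700 CPM in Ctrl mice. Greb1 rested on 4 to 29 counts a library and Irs4 on 8 to 65. Both passed in edgeR's likelihood ratio test, an alternative to the test used here. The list summed to 53.3, 88.5 and 57.3 CPM in CRS 1 to 3, against 88.6, 84.2 and 78.4 CPM in Ctrl 1 to 3. CRS 3 was the lowest library for 5 of the 9, where it was the lowest for 17.1% of all genes. Among them was Tcf7l2, a thalamic factor named after its values were seen, at 1.49 CPM on 15 counts. The relation of this list to Slc17a6 was not tested. Claustrum, endopiriform and deep cortical markers had 4 of 9 above 0 (median -0.084), with the synaptic vesicle gene Synpr at -0.42 ± 0.24 and the G protein subunit gene Gnb4 at -0.29 ± 0.24. Hippocampal markers had 4 of 10 above 0 (median -0.16), with the dentate gyrus factor Prox1 at -0.31 ± 0.14 and Zbtb20 at -0.20 ± 0.15. CRS 1 was the highest library for 4 and the lowest for 3 of the 9 claustrum, endopiriform and deep cortical markers. Among the 10 hippocampal markers it was the highest for 3 and the lowest for 2. Over all genes it was the highest for 22.6% and the lowest for 23.1%. Gnb4, Oprk1, Synpr, Wfs1 and Lct were lowest in CRS 1, at 40.4, 7.39, 87.1, 95.1 and 1.03 CPM. Their Ctrl means were 70.0, 25.5, 180, 185 and 2.41 CPM. The members named next, after their values were seen, were highest there, as most of the glutamatergic genes were. Fibcd1 was at 133, 6.65 and 6.16 CPM in CRS 1 to 3, against 10.7, 13.5 and 16.4 CPM in Ctrl 1 to 3 (log2 fold change 1.84 ± 1.43, unadjusted p 0.262, edgeR), the largest fitted difference above 0 among the 14739 genes tested. Nr4a2, a nuclear receptor gene of the claustrum list, was at 99.0, 57.0 and 39.3 CPM in CRS 1 to 3, against 30.6, 45.6 and 69.4 CPM in Ctrl 1 to 3 (0.42 ± 0.45). Cpne7 of the hippocampal list and Cplx3 of the claustrum list were likewise highest in CRS 1, at 246 and 22.1 CPM, with differences of 0.21 ± 0.43 and 0.31 ± 0.76. The part of these markers in the differences of the glutamatergic genes was not tested.

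Among glia and vessels, astrocyte markers had 9 of 10 below 0 (median -0.16), led by Gja1, the connexin 43 gene, at -0.25 ± 0.064, and Ntsr2 at -0.25 ± 0.091. The oligodendrocyte median was -0.38, with the myelin genes Fa2h at -0.48 ± 0.19 and Mobp at -0.52 ± 0.20. Microglia markers had 7 of 9 below 0 (median -0.048), with C1qb at -0.21 ± 0.088 and Cx3cr1 at -0.10 ± 0.069. Endothelial markers had 6 of 8 below 0 (median -0.20), with Emcn at -0.39 ± 0.17 and Slc2a1 at -0.23 ± 0.10, and all 8 choroid plexus markers were below 0 (median -0.28), with Otx2 at -0.55 ± 1.73 and Clic6 at -0.48 ± 1.73. Without CRS 1 all 8 choroid plexus markers were above 0 (median 0.27), and without CRS 1 and Ctrl 1 the microglia median was 0.010. Astrocyte markers were 10 of 10 below 0 in both of these fits, with medians of -0.23 and -0.21. No gene of these lists passed the threshold.

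The genes nearest to each of the 8 in pattern were taken by the root mean square difference of centred log2 CPM over the 6 libraries, among 11919 other genes with a mean of at least 5 CPM. Nearest to Slc17a7 were Ypel1 and Rapgefl1 at 0.064 and 0.065, and nearest to Tbr1 were Vip and Mir7047 at 0.058 and 0.062. Sez6 and Miat lay at 0.055 and 0.068 from Etv1, and Dcx and Abcb4 at 0.048 and 0.056 from Lhx2. The next were Gm14636 and Calhm2 for Neurod2, at 0.041 and 0.070, and Slc26a4 and Cemip for Neurod6, at 0.070 and 0.15. Asap2 and Sstr4 lay at 0.075 and 0.14 from Rspo2. Slc17a6 had the most distant neighbours, Nrg2 at 0.14 and Susd2 at 0.19. With 6 libraries and so many genes, near patterns are found for nearly any gene, and these distances describe the libraries only.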

How the data were processed

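For each library the authors deposited unnormalized counts by gene symbol. Tools listed in the submitters' processing notes, with no roles, are HTSeq 0.13.5, STAR 2.7.7a, edgeR 3.42.4 and FastQC 0.12.1, and the build is mm39. Neither annotation nor strand setting is stated in those notes. Totals of unassigned reads were left out. Reads without a feature made up 53.0 to 57.4%, highest in CRS 1. This share is of reads in genes, without a feature, ambiguous or not uniquely aligned, and leaves out other unassigned reads.

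The work used edgeR 4.0.16, DESeq2 1.42.0 and limma 3.58.1 in R 4.3.3. Low genes were removed by filterByExpr (minimum count 10, minimum total 15), and the rest were scaled by TMM and tested with edgeR's robust quasi-likelihood F test, CRS minus Ctrl, over 14739 genes. SEs were derived by dividing the size of the log2 difference by the root of F. CPM use TMM-scaled library sizes, log2 CPM a prior count of 2, and RPKM the union of GENCODE M21 exons, with a length for all 8 genes. The fit was also run on counts simulated for each gene independently. These carry no shift shared across genes, such as the low striatal level of CRS 1, and cannot show how the fit handles one.

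The 8 genes and the lists were chosen with earlier results of these data known. Named genes are the 8, the 2 of each list with the smallest unadjusted p, and the 2 nearest in pattern; others, among them Adora2a, Drd2, Slc17a8 and Tcf7l2, were named after their values were seen. Lists are described by counts and medians, without a set test. Alternatives covered normalization, filter, tool, robust estimation, replicate number, covariates and libraries left out. All library pairs differed beyond sampling noise (lowest chi-square per gene 2.95).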

Additional observations from a re-analysis of the deposited data

How the results depend on the processing

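None of the 8 glutamatergic genes passed under any of 18 alternative settings. Lhx2 and Slc17a7 stayed above 0 in all of them, at 0.25 to 0.42 and 0.045 to 0.40 on the log2 scale. Of 144 values for single genes 24 changed sign. Over all genes DESeq2 called 2 (Hpca and Ndst4), the likelihood ratio test 4 (these, Irs4 and Greb1), and leaving out each library 0 to 1 (Rn18s, without Ctrl 3). With libraries left out in turn, the median of the 8 ran from 0.053 to 0.39, Slc17a6 from -0.55 to 0.35, Neurod2 from -0.072 to 0.21, Neurod6 from -0.40 to 0.40, Tbr1 from 0.044 to 0.41, Rspo2 from -0.24 to 0.82 and Etv1 from -0.0019 to 0.46, and the log2 ratio of Slc17a6 to Slc17a7 from -0.84 to 0.048. Without CRS 1 and Ctrl 1 the median was -0.031, with Neurod2 at -0.23, Neurod6 at -0.58, Tbr1 at -0.052, Rspo2 at -0.35 and Etv1 at -0.011. With the striatal level as a covariate the median was -0.058, with Neurod2 at -0.23, Neurod6 at -0.68, Tbr1 at -0.0089, Rspo2 at -0.52 and Etv1 at -0.11. With the choroid plexus level as a covariate Slc17a6 was at -0.060, Neurod2 at -0.0053 and Neurod6 at -0.059. Slc17a6 was also at -0.052 when scaled to pan-neuronal markers, which moved the median of all genes to -0.080, and at -0.12 with limma-voom. Beyond the composition of each fit, the cause was not tested.

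With the replicate block 0 genes were called and the median of the 8 was 0.24, with Slc17a6 at -0.10. The numbers were not shown to pair mice: deviations from the group means correlated at -0.32, 0.53 and 0.28 for numbers 1, 2 and 3 (across genes), and CRS 1 correlated best with Ctrl 3, at 0.48.

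With 3 mice a group, the 95% intervals of Slc17a6, Neurod6 and Rspo2 hold folds from 0.487 to 2.17, from 0.524 to 2.31 and from 0.545 to 3.59, so folds within these ranges are compatible with the data. Depth is not the limit for Slc17a7, whose counting error was about 1.01%.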
